A study of Danio rerio with 6 samples.

Results

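The nuclear genes for subunits of the mitochondrial respiratory chain and the ATP synthase were followed in 7-day-old zebrafish (Danio rerio), sampled whole after being kept in embryo medium alone or with dissolved nucleotides added. The genes were chosen by symbol (ndufa, ndufb, ndufc, ndufs and ndufv, sdha to sdhd, uqc, cox4 to cox8 and atp5, without ndufaf), which gave 77 of the 14612 symbols in the count table. Of these, 33 were assigned by symbol to complex I, 6 to complex II, 9 to complex III, 14 to complex IV and 15 to complex V. The rule also takes in 2 assembly factors, sdhaf2 and uqcc1, which are named as such below but counted with their complexes. Likewise atp5s, now dmac2l (coupling factor B), is counted with complex V. A supercomplex gene, cox7a3, now cox7a2l, is counted with complex IV. By symbol ndufa4 and its paralog ndufa4l are counted with complex I, although the mammalian product of ndufa4 belongs to complex IV. Not all 77 are therefore subunit genes of the complex they are counted with. There were 3 control pools at a concentration of 0 and 3 nucleotide pools at 10 µM, each a pool of 33 to 35 animals. Neither the nucleotides nor the fish strain is named in the labels. The exposed columns of the deposited table carry the name carbon monoxide in place of nucleotide, and they were matched to samples by library name. That the agent was nucleotides is taken from the labels.

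The respiratory chain sits in the inner mitochondrial membrane. Complexes I and II pass electrons from NADH and succinate to ubiquinone, complex III passes them on to cytochrome c, and complex IV hands them to oxygen. Complexes I, III and IV pump protons as they work, and complex V, the ATP synthase, lets the protons back through a rotor to make ATP. Complex II is built from nuclear genes alone, whereas the others join nuclear with mitochondrially encoded subunits. Muscle, heart and brain are rich in these complexes, and several complex IV subunits have tissue forms made from separate genes.

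Control libraries held 18690465 to 23066970 counts and nucleotide libraries 25792829 to 31556366, and 13336 genes passed the filter on low counts, all 77 of the respiratory genes among them. Levels are in CPM, the share of a library's counts after TMM scaling, which trims the most changed genes before libraries are set level. They are not per gene length, so they compare libraries and not genes. Libraries of the arms that share a number deviated together and were taken as pairs, so each result is given from the edgeR quasi-likelihood test without and with the number as a block, at an adjusted p of 0.05 over all tested genes. In whole animals, fewer cells of a type and less RNA per cell cannot be told apart.

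Without the block, 1 respiratory gene rose, uqcrh of complex III, and 1 fell, cox5aa of complex IV, and the other 75 did not pass. These 2 of 77 genes stand beside 0.99% called among all tested genes (0.937% higher and 0.0525% lower). Log2 fold changes of the 77 genes ran from -0.75 to 0.64 with a median of -0.05, against -0.01 for all tested genes, and 58 of the 77 lay within 0.25 of 0. With the block, 13 of the 77 genes rose and 15 fell, beside 19.1% called among all tested genes (10.7% higher and 8.38% lower). On simulated counts the fit with the block called unchanged genes more often than its threshold allows, so calls made with the block alone are less firm. The members called with the block moved by 0.20 to 0.75 on the log2 scale. The median standard error (SE) with the block was 0.066 over the 77 genes and 0.0882 over all tested genes. In CPM, 9 of the 77 genes were higher and 10 lower in every nucleotide library than in every control library, beside 21.4% of all tested genes without overlap (11.5% higher and 9.89% lower).

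**Figure D1:**
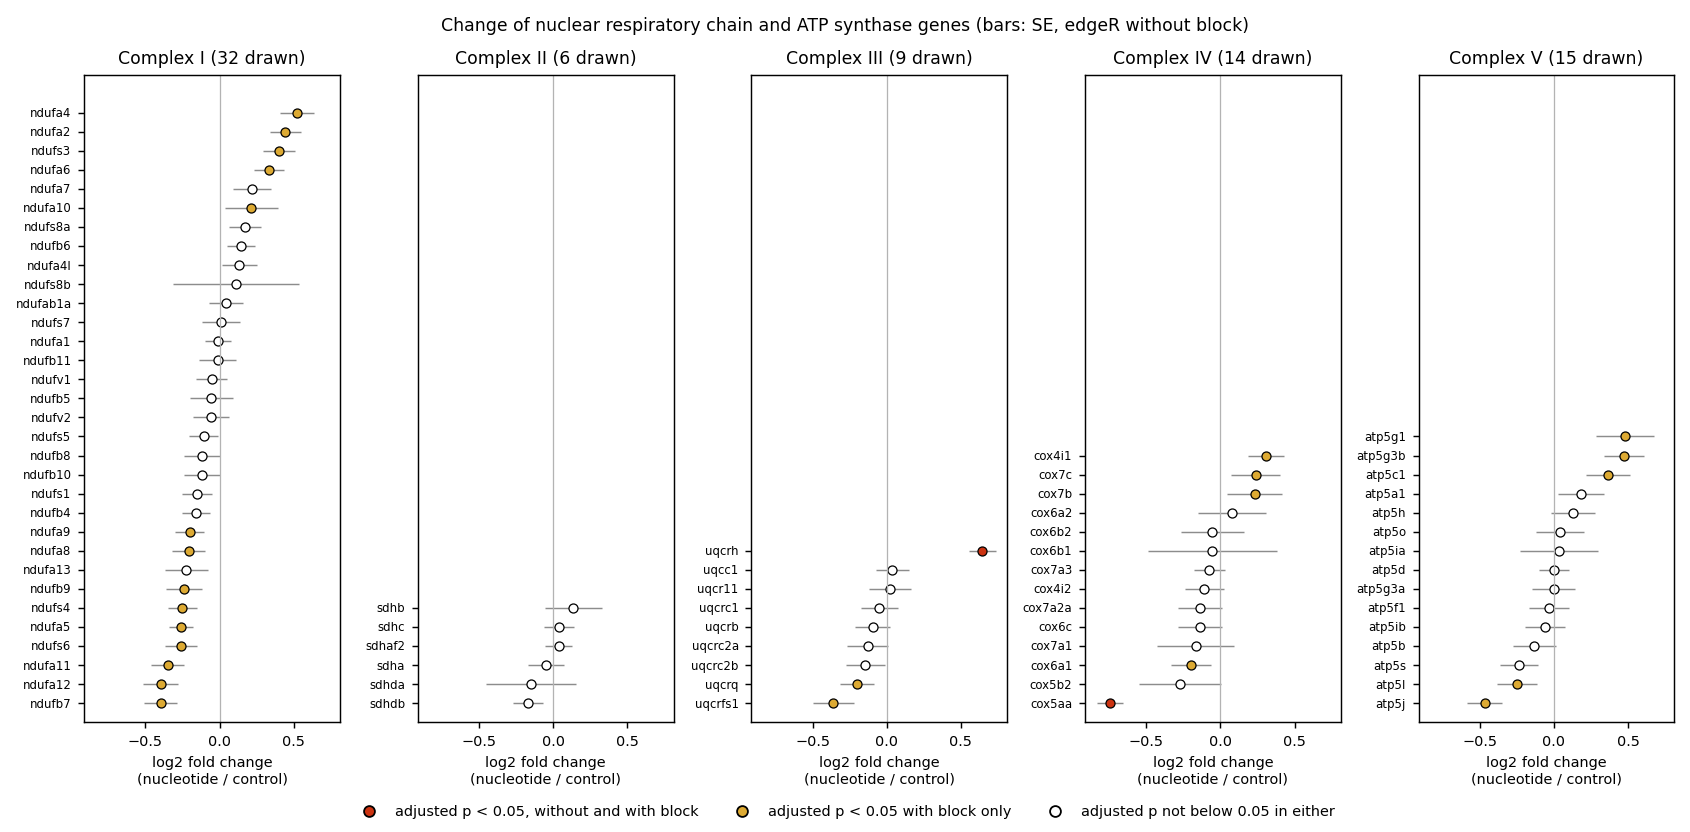
Log2 fold change of 76 of the 77 genes by complex, with its SE from the edgeR fit without the block, red where the adjusted p passed without and with the block and yellow where it passed with the block alone. Only cox5aa at -0.75 and uqcrh at 0.64 are red, and yellow points lie on both sides of 0 in complexes I, IV and V.

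The direction of the smaller changes depends on the scaling. With plain library totals the median of all genes moved to -0.14, and 1 respiratory gene was called without the block (cox5aa, lower), beside 0.78% of all tested genes (0.645% higher and 0.135% lower). With the block 9 respiratory genes rose and 34 fell under that scaling, beside 26.8% of all tested genes (5.14% higher and 21.7% lower). Of the 28 genes called with the block under TMM, 24 were also called with library totals (9 higher and 15 lower) and none changed sign. Among those lost were cox7b, cox7c and ndufa10, each higher under TMM. Leaving out pair 1, 2 or 3 left 16, 17 and 23 calls among the 77 genes, beside 2135, 2012 and 1671 among all 13336 tested genes. Of the 28, 14 held with any single pair left out. Among these 14 were both genes called without the block. How many calls of all tested genes held under library totals or without any single pair is not given here. Whether 24 or 14 of 28 is usual therefore cannot be told.

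DESeq2 called 6 of the 77 genes, 4 higher and 2 lower, beside 3.79% of all genes with an adjusted p (3.05% higher and 0.736% lower). The authors' deposited table gave the same 6, with cox5aa, uqcrh, ndufa4, ndufa2, atp5g3b and atp5j at an adjusted p under 0.05. Beside these stand 4.12% of its 12011 genes with an adjusted p. The submitters' notes name DESeq2 and the counts are the same, so this is no separate line of evidence.

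cox5aa (NCBI gene 554101) encodes subunit Va of cytochrome c oxidase, a small nuclear subunit on the matrix face of the enzyme. It had 85.6, 83.1 and 94.2 CPM in control libraries 1 to 3 and 53.4, 52.8 and 50.5 CPM in nucleotide libraries 1 to 3. Every nucleotide library lay below every control library, with little spread within either group. In raw counts it went from 2009, 1604 and 2255 to 1530, 1313 and 1455, although the nucleotide libraries were sequenced more deeply. The mean fell from 87.6 ± 5.82 to 52.3 ± 1.52 CPM (SD, n = 3 each), a log2 change of -0.75 ± 0.0883 (SE) that left 0.596 of the control level (edgeR quasi-likelihood test, adjusted p = 0.00759, and 2.71e-05 with the block). The call was lost without control library 1 (adjusted p = 0.0544). It held with any other single library left out, with the change between -0.78 and -0.69.

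cox5aa did not keep its ratio to other subunits of its complex. Its counts stood to those of cox4i1, the gene for subunit IV, at 0.307, 0.300 and 0.296 in the 3 controls and at 0.160, 0.155 and 0.124 after exposure. Against cox6c, the gene for a small membrane subunit, the ratios went from 0.605, 0.655 and 0.578 to 0.424, 0.477 and 0.326. A count ratio within a library does not depend on how libraries are scaled, and neither ratio overlapped between the groups. For cox4i1 this was fixed beforehand and adds no evidence. In CPM every nucleotide library was lower for cox5aa and higher for cox4i1, so their ratio had to separate the groups. The CPM of cox6c overlapped between the groups, but the CPM ranges of cox5aa and cox6c left their ratio no room to overlap. The cox6c ratio therefore adds no evidence beyond the fall of cox5aa either. The partner genes were picked after their values were seen.

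uqcrh (566723) encodes the hinge protein of complex III, a small acidic subunit beside cytochrome c1. It had 86.1, 81.3 and 81.7 CPM in control libraries 1 to 3 and 123, 125 and 140 CPM in nucleotide libraries 1 to 3. All 3 nucleotide libraries were above all 3 controls. The mean rose from 83.0 ± 2.69 to 130 ± 9.17 CPM (SD, n = 3 each), a log2 change of 0.64 ± 0.0902 (SE) and a level 1.56 times the control (edgeR adjusted p = 0.0171, and 8.58e-05 with the block). Without the block the call was lost with control library 1, 2 or 3 left out (adjusted p = 0.1, 0.0983 and 0.0825), with nucleotide library 1 or 2 left out (0.0531 and 0.0627) and under library totals (log2 fold change 0.52, adjusted p = 0.0508). Over these settings the change stayed between 0.52 and 0.68, and with the block it passed without any one pair.

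Within complex III the catalytic Rieske iron-sulfur protein gene went the other way. uqcrfs1 (406359) had 79.6, 69.9 and 75.1 CPM in control and 65.4, 46.4 and 63.1 CPM in nucleotide libraries. The groups did not overlap, and nucleotide library 2 was the lowest. Its log2 fold change of -0.36 ± 0.139 (SE) did not pass without the block (edgeR adjusted p = 0.289) and fell with it (-0.37 ± 0.0754, adjusted p = 0.00599). The counts of uqcrh stood to those of uqcrfs1 at 1.08, 1.16 and 1.09 in the 3 controls and at 1.89, 2.70 and 2.22 after exposure. That this ratio did not overlap was fixed beforehand and adds no evidence, as the 2 genes each separated the groups in opposite directions. Against uqcrc1, a core protein gene, the ratio changed less, from 0.359, 0.342 and 0.286 to 0.517, 0.567 and 0.507, with no overlap. The CPM ranges of uqcrh and uqcrc1 left no room for overlap, so the uqcrc1 ratio adds no evidence beyond the rise of uqcrh either. Both partners were picked after their values were seen. uqcrq, the gene for a small membrane subunit, fell by 0.21 on the log2 scale with the block (adjusted p = 0.0382), a call lost with pair 1, 2 or 3 left out (up to 0.254).

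The genes for the core proteins of complex III, uqcrc1, uqcrc2a and uqcrc2b, did not pass in either fit, with log2 fold changes of -0.05, -0.13 and -0.15. Nor did uqcrb, uqcr11 or the assembly factor uqcc1. In all, 1 of 9 complex III genes rose and 2 fell with the block, beside 10.7% and 8.38% of all tested genes. Without it 1 rose, beside 0.937%. Under library totals 1 rose and 5 fell with the block, beside 5.14% and 21.7% of all tested genes, and 0 passed without it. The gene for cytochrome c1, cyc1, the remaining catalytic subunit made in the nucleus, lies outside the symbol rule and had a log2 fold change of -0.03 (edgeR adjusted p = 0.939).

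**Figure D2:**
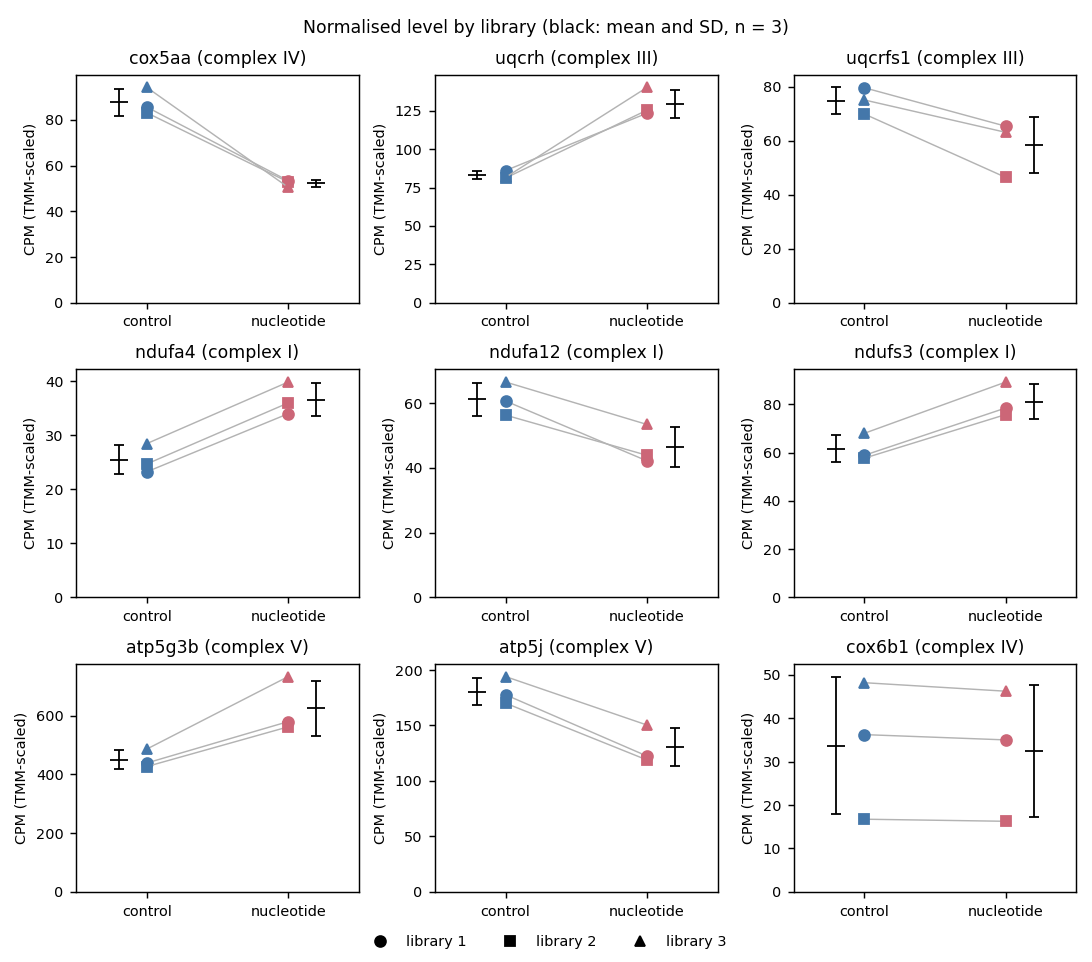
CPM (TMM-scaled, axes from 0) of 9 respiratory genes in each library, control in blue and nucleotide in red, with lines joining libraries of the same number and black marks for mean and SD (n = 3). The groups separate for cox5aa, uqcrh, uqcrfs1, ndufa4, ndufa12, ndufs3, atp5g3b and atp5j, whereas cox6b1 differs between numbers and not between groups.

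In complex I no gene passed without the block in edgeR, although 11 of 33 had an unadjusted p under 0.05 (beside 14.5% of all tested genes), and DESeq2 called 2 (ndufa4 and ndufa2, both higher). With the block 6 rose and 9 fell, beside 10.7% and 8.38% of all tested genes. Under library totals with the block 4 rose and 17 fell, beside 5.14% and 21.7% of all tested genes. ndufa4 (406298) changed most, from 23.3, 24.7 and 28.5 CPM in control to 34.0, 36.0 and 39.9 CPM in nucleotide libraries. The groups did not overlap, and library 3 was the highest of both arms. Its log2 fold change was 0.52 ± 0.113 (SE) without the block (edgeR adjusted p = 0.0899) and 0.52 ± 0.0736 with it (adjusted p = 0.000702). The mammalian product of this gene, despite its name, belongs to complex IV. Its paralog ndufa4l did not pass in either fit (0.13), and it is not known how reads that fit both genes were counted.

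The catalytic core of the peripheral arm carries the flavin and the iron-sulfur clusters that lead to ubiquinone. None of its 8 genes fell with the block under TMM, although ndufs1 and ndufv1 fell under library totals with the block (edgeR adjusted p = 0.00856 and 0.0476), and ndufs3 was among those that rose. ndufs3 (550451) had 58.9, 57.7 and 68.1 CPM in control and 78.5, 75.8 and 89.3 CPM in nucleotide libraries. It was higher in every nucleotide library, with a log2 fold change of 0.40 ± 0.0608 (SE) with the block (edgeR adjusted p = 0.00117, and 0.152 without it). The flavoprotein genes ndufv1 and ndufv2 and the large iron-sulfur gene ndufs1 did not pass under TMM, at -0.05, -0.06 and -0.15.

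Among the 25 genes counted as accessory in complex I, 4 rose and 9 fell with the block, beside 10.7% and 8.38% of all tested genes. These 25 include ndufa4, which is among the rises, and ndufa4l. ndufa2 (554125), for a small subunit of the peripheral arm, had 25.8, 25.4 and 27.9 CPM in control and 32.1, 36.4 and 38.9 CPM in nucleotide libraries, with no overlap. Its log2 fold change was 0.44 ± 0.0774 (SE) with the block (edgeR adjusted p = 0.00289, and 0.115 without). ndufa6 rose by 0.33 and ndufa10 by 0.21 with the block (adjusted p = 0.00775 and 0.0403), the latter lost with any pair left out (up to 0.143).

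ndufa12 (556538), for another peripheral arm subunit, had 60.6, 56.3 and 66.5 CPM in control and 42.2, 43.9 and 53.4 CPM in nucleotide libraries, lower in each of the latter. It fell by 0.40 on the log2 scale with the block (edgeR adjusted p = 0.00233, and 0.194 without). ndufb7, of the distal membrane arm, went from 77.4, 81.1 and 86.3 to 53.8, 62.8 and 69.3 CPM and fell by 0.40 with the block (adjusted p = 0.00192). ndufa11, of the membrane arm, went from 64.7, 64.8 and 77.0 to 52.7, 49.9 and 59.5 CPM and fell by 0.35 (adjusted p = 0.00328). These 3 did not overlap between the groups and held with any pair left out. Smaller falls with the block, between -0.26 and -0.20, were called for ndufa5, ndufs6, ndufs4, ndufb9, ndufa8 and ndufa9. Each of these 6 was lost with at least one pair left out, with adjusted p up to 0.0538 for ndufa5 without pair 3, 0.112 for ndufs6 without pair 3, 0.115 for ndufs4 without pair 1, 0.156 for ndufb9 without pair 2, 0.156 for ndufa8 without pair 1 and 0.221 for ndufa9 without pair 1.

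The genes of complex II, which also works in the citric acid cycle, showed no call. Of 6 genes, 0 passed in edgeR without or with the block, 0 had an unadjusted p under 0.05 without it and DESeq2 called 0. The flavoprotein gene sdha (393884) had 336, 298 and 298 CPM in control and 329, 261 and 312 CPM in nucleotide libraries, and the ranges overlapped. The iron-sulfur gene sdhb (562149) had 161, 109 and 144 CPM in control and 177, 116 and 162 CPM in nucleotide libraries, lowest in library 2 of both arms. Their log2 fold changes were -0.05 ± 0.12 and 0.13 ± 0.192 (SE). The anchor genes sdhc, sdhdb and sdhda were at 0.04, -0.17 and -0.15, the last from 0.845 to 1.41 CPM, and the assembly factor sdhaf2 was at 0.04. With the block, 1 gene of complex II fell under upper quartile scaling, beside 1335 of all 13336 tested genes. Under library totals with the block 1 fell, beside 21.7% of all tested genes.

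Complex IV held 3 rises and 2 falls among 14 genes with the block, beside 10.7% and 8.38% of all tested genes. Without it there was 1 fall and no rise, beside 0.0525% and 0.937%. Under library totals with the block there were 1 rise and 6 falls, beside 5.14% and 21.7% of all tested genes. cox4i1 (326975) had 279, 277 and 319 CPM in control and 334, 341 and 408 CPM in nucleotide libraries, without overlap, and rose by 0.31 ± 0.0653 (SE) with the block (edgeR adjusted p = 0.00786, 0.293 without the block, and 0.0506 with the block and without pair 2). Its paralog cox4i2, whose mammalian counterpart is known as the form of low oxygen, was at -0.11 and did not pass. The small membrane subunit genes cox7c and cox7b rose by 0.24 and 0.23 with the block (adjusted p = 0.0186 and 0.0196), although their groups overlapped. cox6a1, the form of subunit VIa found across mammalian tissues, fell by 0.20 (0.0447), and its paralog cox6a2, the muscle form in mammals, was at 0.08 and did not pass. All 3 of these calls were lost without pair 1 and without pair 2, and those of cox7c and cox7b under library totals too (0.199 and 0.206).

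Complex V held 3 rises and 2 falls among 15 genes with the block, beside 10.7% and 8.38% of all tested genes. Without the block edgeR made 0 calls, and 4 genes had an unadjusted p under 0.05 (beside 14.5% of all tested genes). DESeq2 called 1 higher and 1 lower, beside 3.05% and 0.736% of all genes with an adjusted p. Under library totals with the block 3 rose and 5 fell, beside 5.14% and 21.7% of all tested genes. atp5g3b (81541), 1 of 3 genes for subunit c of the membrane ring, had 439, 427 and 486 CPM in control and 580, 562 and 733 CPM in nucleotide libraries. The groups did not overlap, and its log2 fold change was 0.46 ± 0.0715 (SE) with the block (edgeR adjusted p = 0.0013, and 0.177 without). atp5g1 (406301) had 72.8, 70.2 and 97.7 CPM in control and 107, 87.1 and 142 CPM in nucleotide libraries, higher in each of the 3 pairs though with overlap, and rose by 0.47 ± 0.0679 with the block (adjusted p = 0.000893). atp5g3a, the other gene for subunit c, was at -0.01 with the block (adjusted p = 0.926). Genes for this subunit make near-identical mature proteins, so reads may be shared between them, and the value of any single one is uncertain. atp5c1 (336957), for the gamma subunit that turns with the ring, rose by 0.36 (adjusted p = 0.00381), whereas atp5d, for the delta subunit that turns with it, was at -0.01 and did not pass (0.956).

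atp5j (406599), for coupling factor 6 in the stalk that holds the enzyme still, had 178, 170 and 194 CPM in control and 122, 119 and 150 CPM in nucleotide libraries. All nucleotide libraries were below all controls, and it fell by 0.47 ± 0.0651 (SE) on the log2 scale with the block (edgeR adjusted p = 0.000617, 0.135 without, and DESeq2 adjusted p = 0.0227). The other stalk genes atp5f1, atp5h and atp5o did not pass. atp5l, for subunit g of the membrane part, fell by 0.25 with the block (0.0191), a call lost without pair 1 or 2. The genes for the alpha and beta subunits of the catalytic head, atp5a1 and atp5b, did not pass, at 0.18 and -0.13, and atp5b alone took 25.4% of the complex V counts.

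A further 6 genes in the table have placeholder or older symbols and match the rule only by their current RefSeq name (GRCz12tu assembly), and they were added after the data were seen. Without the block 1 of the 6 rose and 0 fell, beside 0.937% and 0.0525% of all tested genes. With it 2 rose and 0 fell, beside 10.7% and 8.38%. zgc:193541, now atp5mj, for a small membrane subunit of the ATP synthase, had 60.8, 63.2 and 68.6 CPM in control and 101, 102 and 131 CPM in nucleotide libraries. There was no overlap, and nucleotide library 3 was the highest. Its log2 fold change was 0.80 ± 0.124 (SE) (edgeR adjusted p = 0.028, and 1.37e-05 with the block). Without the block that call was lost with any single library left out except nucleotide library 3 (adjusted p up to 0.178, without control library 1). atpif1a, for an inhibitor of ATP hydrolysis by the synthase, rose by 0.22 with the block (0.0359). That call was lost with the block under upper quartile scaling and under library totals. The genes atpif1b, si:dkeyp-80c12.10 (now atp5md), si:ch211-68a17.7 (now uqcc6) and zgc:86599 (now cox5ba) did not pass.

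The levels were also summed over each complex. The 33 complex I genes took 0.310%, 0.293% and 0.326% of all counts of the controls, against 0.277%, 0.261% and 0.291% after exposure. The complex V genes took 0.447%, 0.401% and 0.477%, against 0.407%, 0.377% and 0.479%. As plain shares the complex I sums were lower in every nucleotide library than in any control library, by a narrow margin. Those of complex III did not overlap either, at 0.116%, 0.111% and 0.120% against 0.105%, 0.0961% and 0.109%, and those of complexes II, IV and V did. The log2 ratio of these shares was -0.16 for complex I and -0.17 for complex III. Under library totals the median log2 fold change of all tested genes was -0.14. Under TMM scaling, the log2 ratio of the summed CPM of nucleotide to control was -0.04 for complex I, -0.01 for complex II, -0.04 for complex III, 0.01 for complex IV and 0.06 for complex V. Each of these was smaller than the spread between libraries of a group (SD on the log2 scale between 0.102 and 0.184).

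**Figure D3:**
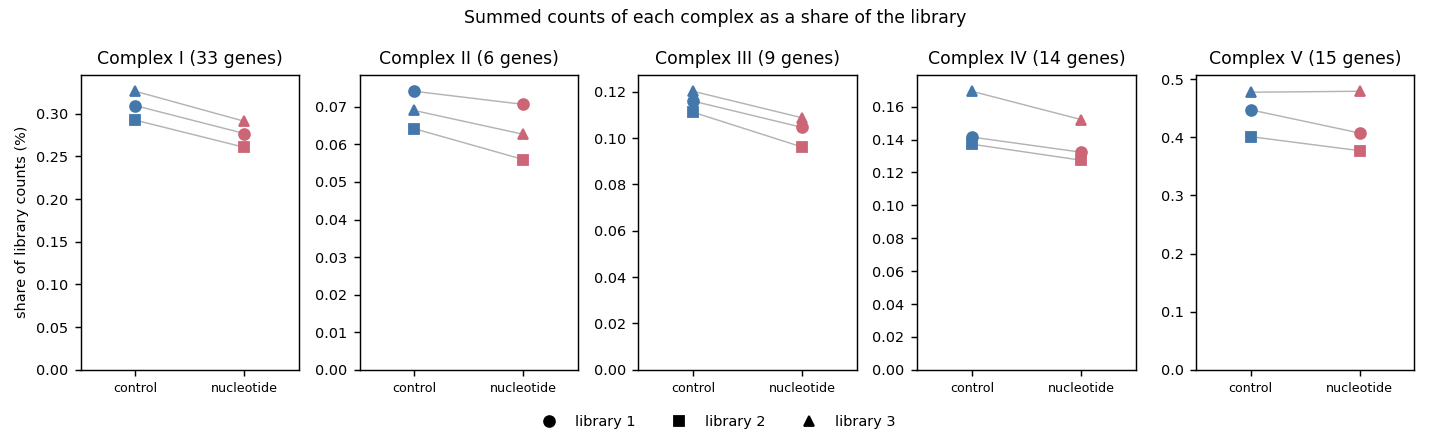
Summed counts of each complex as a percent of all counts in the library (axes from 0), with lines joining libraries of the same number, control in blue and nucleotide in red. Complex I runs from 0.261% to 0.326%, and library 3 of each arm is highest in all complexes but complex II.

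Levels of most respiratory genes moved with the library number. Of the 77 genes, 56 had their highest CPM in library 3 of both arms (72.7%), beside 2948 of all 13336 tested genes (22.1%), and 39 were lowest in library 2 of both arms (50.6%, beside 18.9%). By complex, 25 of 33 genes of complex I, 1 of 6 of complex II, 6 of 9 of complex III, 11 of 14 of complex IV and 13 of 15 of complex V were highest in library 3 of both arms. The median log2 ratio of library 3 to library 2 over the 77 genes was 0.21 in control and 0.30 in nucleotide pools, against 0.00 and -0.01 over all tested genes. What the number stands for is not given in the labels, so this pattern carries no test.

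cox6b1 (436968), for a subunit on the outer face of complex IV, showed the largest such difference of the 77 genes in both arms. It had 36.2, 16.7 and 48.2 CPM in control and 35.0, 16.3 and 46.2 CPM in nucleotide libraries, so that each nucleotide library lay close to the control library of its number. Library 3 stood 2.88-fold above library 2 in control and 2.84-fold in nucleotide pools. Its log2 fold change with exposure was -0.05 ± 0.436 (SE) without the block and -0.05 ± 0.0724 with it. cox7a1, the muscle form of its subunit in mammals, and cox5b2, both named after their values were seen, were 1.76-fold and 1.55-fold higher in library 3 than in library 2 of the control and 1.78-fold and 2.02-fold higher in the nucleotide pools. cox4i2 went the other way, at 86.5, 84.6 and 68.2 CPM in control and 73.3, 84.2 and 64.5 CPM in nucleotide libraries, lowest in library 3 of both.

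Skeletal muscle markers moved with both the number and the exposure. The 30 markers found took 4.85%, 4.44% and 5.48% of each control library and 5.83%, 5.59% and 8.86% of each nucleotide library, highest in library 3 of each arm. None of the 30 was at 0 in all libraries, and 4 of them rose without the block and 19 with it. The 13 heart markers took 0.0279% to 0.0336% in control and 0.0415% to 0.0523% in nucleotide libraries, with 2 of 13 higher and none at 0. Among 8 replacement and variant histone genes, 2 of the 7 tested rose, and RNA quality was not tested. The liver markers were also highest in library 3 of each arm (0.846% and 0.836%), whereas the neuron markers lay between 0.224% and 0.246% in all 6 libraries. Skin and ionocyte markers (0.775% and 0.884%), eye markers (0.486% and 0.495%) and erythrocyte markers were highest in library 3 of both arms too, and exocrine pancreas markers were lowest there (1.45% and 1.18%). Without the block, none of the liver, neuron, erythrocyte, gut, exocrine pancreas, skin and ionocyte or eye markers was called. With it, 5 of 11 liver, 6 of 10 neuron, 5 of 8 eye, 4 of 9 skin and ionocyte and 1 of 6 erythrocyte markers rose, as did 4 of 13 heart markers and 4 of 7 histone genes. With the block, 3 of 10 exocrine pancreas markers and 1 skin and ionocyte marker fell, and 0 of 7 gut markers were called. All tested genes gave 0.937% rises and 0.0525% falls without the block, and 10.7% and 8.38% with it. Calls made with the block alone are less firm, as stated above. The part of these cell types in the respiratory gene results was not tested.

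**Figure D4:**
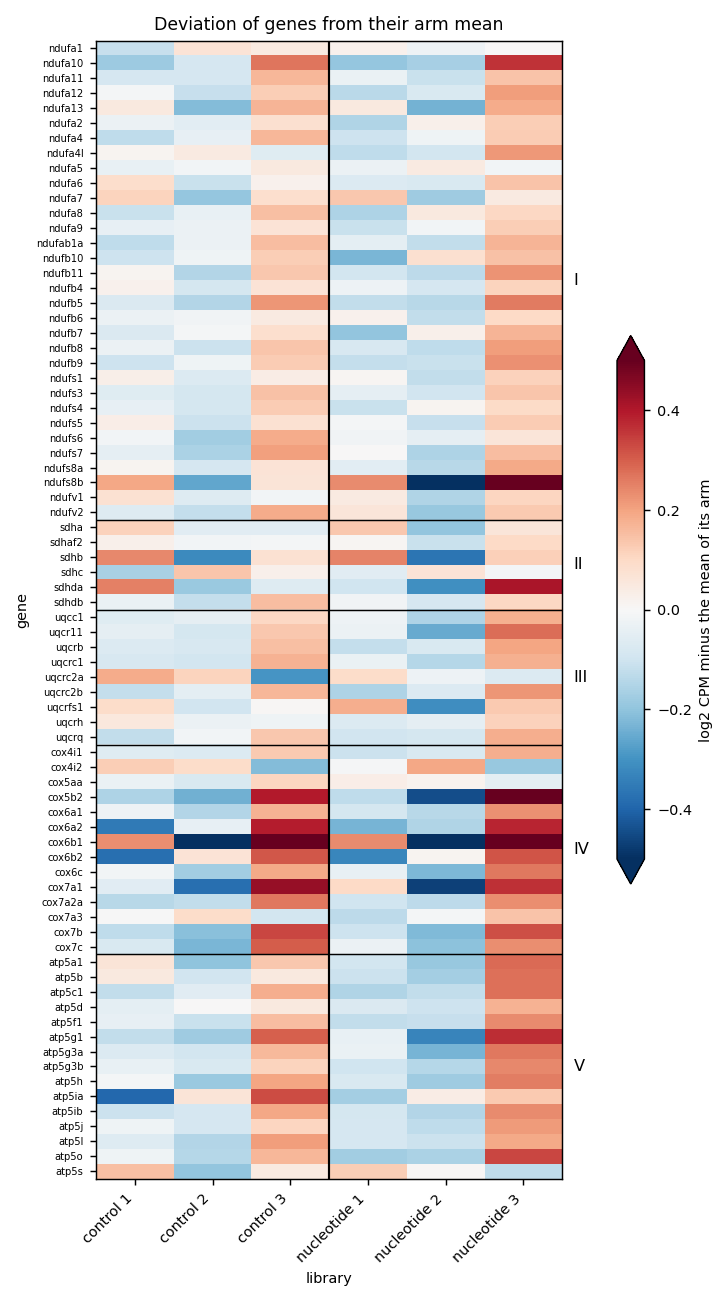
Log2 CPM of 76 of the 77 genes in each library minus the mean of its own arm, by complex, red above and blue below that mean, with the colour scale stopping at 0.5. Library 3 of both arms is mostly red and library 2 mostly blue, with cox6b1 and cox7a1 among the strongest and cox4i2 reversed.

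Genes around the respiratory chain were read from lists of assembly factors, electron carriers, the citric acid cycle, regulators, inner membrane proteins, protein import and alternative electron entry. Without the block, 0 members of these 7 lists passed in edgeR, beside 0.99% of all tested genes. At an unadjusted p under 0.05 they held 3 of 32 assembly factors, 2 of 12 cytochrome c and coenzyme Q genes, 3 of 25 citric acid cycle and pyruvate dehydrogenase genes, 0 of 15 regulators of mitochondrial biogenesis, 3 of 17 inner membrane genes, 5 of 25 import and chaperone genes and 0 of 9 genes of uncoupling and alternative electron entry. Of all tested genes, 14.5% stood at that unadjusted p. DESeq2 called 3 genes in these lists, coq3 lower and slc25a5 and tomm22 higher. Beside these stand 3.05% higher and 0.736% lower among all genes with a DESeq2 adjusted p. With the block, the rises and falls were 2 and 1, 0 and 3, 3 and 1, 2 and 0, 4 and 0, 7 and 2, and 1 and 2 in that order, beside 10.7% and 8.38% of all tested genes. Under library totals with the block, the lists from assembly to regulators held 1 and 3, 0 and 7, 2 and 5, 0 and 1. The lists from inner membrane to alternative entry held 2 and 0, 3 and 4, and 0 and 4. The assembly, citric acid cycle, regulator and import lists thus turned from more rises to more falls. All tested genes turned the same way, from 10.7% higher and 8.38% lower under TMM to 5.14% and 21.7% under library totals. timmdc1 counts in both the assembly and the import list. Lists were matched by current or older symbol, so the citric acid cycle list counts idh3g, now mcur1, beside zgc:113076, now idh3g. It also counts both dld and dldh, whose symbols have since been exchanged. Not all its 25 genes need therefore belong to that pathway, and none of those just named was called without or with the block under TMM. Mitochondrially encoded genes were not analysed here.

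The inner membrane rises included the ADP/ATP carriers, which exchange the ATP made by complex V for ADP. slc25a5 had 2714, 2991 and 3024 CPM in control and 3966, 4494 and 5508 CPM in nucleotide libraries. It was higher in every nucleotide library, and its log2 fold change was 0.67 ± 0.0875 (SE) with the block (edgeR adjusted p = 0.000442, and 0.0899 without). slc25a6 and slc25a4 rose by 0.40 and 0.31 with the block (0.00978 and 0.0185). With the block, the whole inner membrane list held 2 rises under library totals, and 2 under TMM without pair 2 or without pair 3. In each of these settings at least 1 of the 3 carrier calls was therefore lost. The 3 genes encode closely related proteins, so reads may be shared between them.

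Of the 12 cytochrome c and coenzyme Q genes, 3 of coenzyme Q synthesis fell with the block and 9 were not called. coq3 had 29.1, 28.5 and 31.0 CPM in control and 20.2, 22.1 and 23.0 CPM in nucleotide libraries, without overlap, and fell by 0.44 with the block (edgeR adjusted p = 0.00339, and 0.0955 without). coq6 and coq7 fell by 0.37 and 0.35 with the block (0.00241 and 0.0098). Somatic cytochrome c, cycsb, did not pass, at 126 to 209 CPM in control and 130 to 229 CPM in nucleotide libraries. Of the citric acid cycle genes, idh2 rose by 0.40 with the block (0.00541), and the import receptor gene tomm22 rose by 0.54 (0.00062).

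The ribosomal protein genes are given beside the respiratory genes as other large complexes. Of 59 mitochondrial ribosomal protein genes, 0 passed in edgeR without the block, 6 had an unadjusted p under 0.05, DESeq2 called 0, and 3 rose and 6 fell with the block (0 and 12 under library totals), with a median log2 fold change of -0.01. Of 76 cytosolic ribosomal protein genes, 25 rose and 1 fell without the block and 46 rose and 6 fell with it, with a median of 0.39, or 21 rises and 1 fall without the block under library totals. Beside these stand 0.937% rises and 0.0525% falls among all tested genes without the block, and 10.7% and 8.38% with it. Under library totals the shares were 0.645% and 0.135% without the block, and 5.14% and 21.7% with it. At an unadjusted p under 0.05 stood 14.5% of all tested genes. The differences between the ribosomal and the respiratory genes were not tested.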

How the data were processed

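RNA was sequenced from 6 pools of whole embryos, 3 control and 3 nucleotide. The authors deposited whole-number read counts per gene, not normalized, and a comparison with a mean normalized count (a signal per gene), log2 fold changes and their errors, the Wald score and p-values, per the file headers. The tools TopHat2, HTSeq and DESeq2 and the GRCz10 assembly appear in the submitters' processing notes, with no versions. How strand and multiply matching reads were treated is not given in the sources.

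Of 14681 rows, 69 were repeats of a symbol, with identical counts, and were left out. Genes passed filterByExpr (minimum count 10, minimum total 15) and were tested with edgeR 4.0.16 in R 4.3.3 (TMM, quasi-likelihood F test, 2-sided, Benjamini-Hochberg over all tested genes). Each SE was taken from the change and its F statistic (change over root F). DESeq2 1.42.0, other scalings, no filter and left-out libraries were alternatives. The labels number the pools but do not say whether clutches differed. The p-values therefore reflect only how these pools vary, which may be technical.

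The arms share the numbers 1 to 3. Each library's log2 CPM was set against its group mean, and these deviations correlated at 0.546, 0.625 and 0.617 between same-numbered libraries over 13336 genes (0.697, 0.809 and 0.676 over the 77 respiratory genes), all above the limit of 0.1, so the numbers were treated as pairs. The pairing comes from the counts, not the labels. The library names end in their own numbers, which match between the arms for pairs 2 and 3 but not for pair 1.

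The members and lists were chosen with earlier results of these data known. Named members are those called without or with the block, in each complex the 4 with the smallest p and the 2 with the highest mean CPM, their paralogs, cox5aa and uqcrh, and from each list the members called, up to 4. Other genes named were chosen after their values were seen. Current symbols came from NCBI RefSeq names (GRCz12tu), matched by gene number for 76 of the 77 genes, and 18 differ from the table. Counts cover all members, but 1 respiratory gene and 1 gene of a list are not reported here one by one. No sequence was used. Both fits were tested on simulated counts with known changes, where the fit with the block exceeded its nominal share of false calls and the fit without it did not.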

Additional observations from a re-analysis of the deposited data

How the results depend on the processing

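Among all tested genes 132 passed, against 2550 with the replicate block, 494 with DESeq2 and 39 to 80 with one library left out. With the block, 2135, 2012 and 1671 passed without pair 1, 2 and 3, 2559 with DESeq2 size factors, 2546 with upper quartile scaling and 3575 with library totals. Of the 77 respiratory genes 2 passed, against 28 with the block, 6 with DESeq2, 1 with library totals and 0 to 2 with one library left out. With the block, 16, 17 and 23 of them passed without pair 1, 2 and 3, 28 with DESeq2 size factors, 30 with upper quartile scaling and 43 with library totals, and these 3 scalings with the block were chosen after seeing the data.

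For complex I the counts were 0, 15 with the block, 2 with DESeq2, 8 to 10 with the block and without one pair, and 15, 15 and 21 with the block under the 3 scalings in that order. For complex II they were 0 throughout, except 1 under upper quartile and 1 under library totals with the block. For complex III they were 1, 0 to 1 without one library, 0 with library totals, 3 with the block, 2 to 3 without one pair, and 3, 3 and 6. For complex IV they were 1, 0 to 1 without one library, 5 with the block, 1 to 5 without one pair, and 5, 6 and 7. For complex V they were 0, 2 with DESeq2, 5 with the block, 4 to 6 without one pair, and 5, 5 and 8.

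The lists had 0 calls without the block. With the block, without one pair and with the block under the 3 scalings the calls were 3, 1 to 4, and 3, 3 and 4 for assembly factors. They were 3, 3 to 3, and 3, 3 and 7 for cytochrome c and coenzyme Q, which had 1 call with library totals and 1 with DESeq2. They were 4, 3 to 5, and 4, 6 and 7 for the citric acid cycle, and 2, 0 to 1, and 2, 1 and 1 for the regulators. They were 4, 2 to 4, and 4, 3 and 2 for the inner membrane list and 9, 6 to 9, and 9, 8 and 7 for import, with 1 call with DESeq2 in each. They were 3, 1 to 2, and 3, 3 and 4 for uncoupling and alternative entry.

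The median log2 fold change moved with library totals to -0.18 for complex I, -0.13 for complex II and -0.22 for complex IV, beside -0.14 for all tested genes. With the block the values were the same. With one library left out it ran from -0.17 to 0.013 in complex I and from -0.24 to 0.044 in complex IV, lowest without nucleotide library 3 in both. As plain library shares, the log2 ratio of summed levels was -0.16 for complex I, -0.13 for complex II and -0.17 for complex III. The cause was not tested.

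Of the 45 named members as defined above, 10 that were not called without the block changed sign in some setting. Genes named outside that set changed sign too. With the block, going from TMM to library totals took sdhc from 0.043 to -0.082 and sdhaf2 from 0.035 to -0.090. It took uqcc1 from 0.034 to -0.092 and atp5o from 0.024 to -0.10, and uqcr11 and atp5h also turned negative. The values below are for the 10 named members. cox6a2 was at -0.053 with library totals and -0.043 with these and the block. With one library left out, the log2 fold change ran from -0.14 to 0.30 for cox6a2, -0.14 to 0.11 for atp5g3a, -0.39 to 0.29 for cox6b1, -0.22 to 0.11 for cox6b2, -0.10 to 0.018 for ndufv1, -0.11 to 0.043 for sdha, -0.0082 to 0.30 for sdhb and -0.14 to 0.042 for uqcrc1. With the block and without one pair, values of the other sign were 0.057 for atp5g3a, -0.014 for ndufa4l, 0.016 for sdha and 0.056 for sdhda. Depth limits sdhda, ndufs8b and atp5ia most, the respiratory genes with a mean under 10 CPM.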
